A study of Mus musculus with 12 samples.

Results

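The 100 gene names of the array whose level was highest at birth relative to all earlier stages of the mouse kidney are described here. They were taken by score from 27329 named genes, of 34650 gene names on the array, with 1 probe per name. The score is the log2 level in kidney on the day of birth (P0) minus the highest log2 level before birth, at E11.5, E13.5, E15.5 or E17.5, where E counts days after conception. The members were thus chosen by their levels on the 5 fresh kidney arrays. A level is the log2 of an array's processed signal minus the 75th percentile of that array, so a level of 0 is the 75th percentile and a difference of 1 is 2-fold. Names had to lie above -1 and be well above background at P0, which left 11952 names to rank, and the families Slc, Cyp, Ugt, Gst and Hist and unnamed transcripts were left out. Of these families, 17 Slc, 5 Cyp and 1 Ugt names would have scored as high. The array names Egfbp2 and Klk1b26 are now the same gene, so the 100 names stand for 98 current symbols and 1 unnamed transcript, TC1715318.

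RNA was measured on 12 single-colour Agilent arrays to ask which genes go up from stage to stage and how mature cultured kidney tissue becomes. The 5 fresh samples were whole ICR wild type kidneys taken without the ureter, with 1 array for each of the 4 embryonic stages and 1 for P0. A further array held ICR wild type E11.5 kidney after 7 days of culture. The 6 organoid arrays (3 right after assembly, called day 0, and 3 after 7 days of culture, called day 7) held 2 tissues derived from mouse embryonic stem cells of B6 and 129SV background, nephron progenitors and ureteric bud, joined with stromal progenitors of E11.5 ICR kidney. Both kinds of culture were kept on transwells with 50% Matrigel and DMEM/F12 with 10% serum. The fresh stages have no replicates, the small number of arrays is the limit on precision, and no label states whether replicate organoids grew as separate cultures. The p-values then cover the spread between these arrays alone, which may be technical. In whole tissue, fewer cells of a type and less RNA per cell cannot be told apart.

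Before birth the placenta clears waste and supplies glucose, and the kidney tubules do little of the work they later do. At birth the supply of glucose through the cord ends, fat from milk becomes the main fuel, and liver and kidney switch on enzymes that make glucose and ketone bodies. In the kidney the proximal tubule takes back sugars, amino acids and salts and breaks down small molecules, the loop of Henle and distal tubule adjust salt and calcium, and tubule cells release proteases and hormones into urine and blood.

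The scores ran from 1.57 to 4.41, or 2.96-fold to 21.2-fold, with a median of 1.99 (3.97-fold), against a median of -0.40 over all named genes. These are the values the members were selected on, given as a description. The leading names were Clec2h, a C-type lectin (4.41), Angptl7, a secreted angiopoietin-like protein (4.31), Slpi, a secreted inhibitor of leukocyte proteases (4.06), and Fgb, the beta chain of fibrinogen (3.77). They were followed by Mogat1 (3.50), G6pc (3.50), Kap (3.49), Serpina6 (3.37), H2-Q1 (3.33), Wnt10a (3.29), Defb19 (3.13) and Ces1f (3.06). The brightest at P0 were Miox (7.58), Kap (7.17), Spp2 (6.81) and Gpx3 (6.42). The last members were Ech1 (1.61), TC1715318 (1.59) and Calb1 (1.57), and just outside lay AK133106 (1.56), Podn (1.55) and Acp5 (1.55).

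Most members did not start at birth. The median level of the 100 names was -4.50 at E11.5, -4.31 at E13.5, -2.10 at E15.5, -0.50 at E17.5 and 1.74 at P0. At E11.5, 54 were well above background, at E13.5 62, at E15.5 90 and at E17.5 99. For 86 names E17.5 was the highest stage before birth, and for 86 the level was at least 2-fold higher at E17.5 than at E11.5. At all 3 steps before birth 48 names were higher than at the stage before. The other 14 gained less than 2-fold from E11.5 to E17.5: Slpi, Fgb, H2-Q1, Wnt10a, Pla2g2c, 2610507I01Rik, Espn, Acad12, 1600014C10Rik, Pxmp2, C3, Ech1, TC1715318 and Calb1. Wnt10a, a ligand of the Wnt family, lay at -1.01, -1.74, -0.17 and -2.34 at the 4 stages before birth and at 3.11 at P0. Slpi stayed between -4.54 and -3.99 before birth and was 0.07 at P0. The P0 value of each rests on 1 array.

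**Figure D1:**
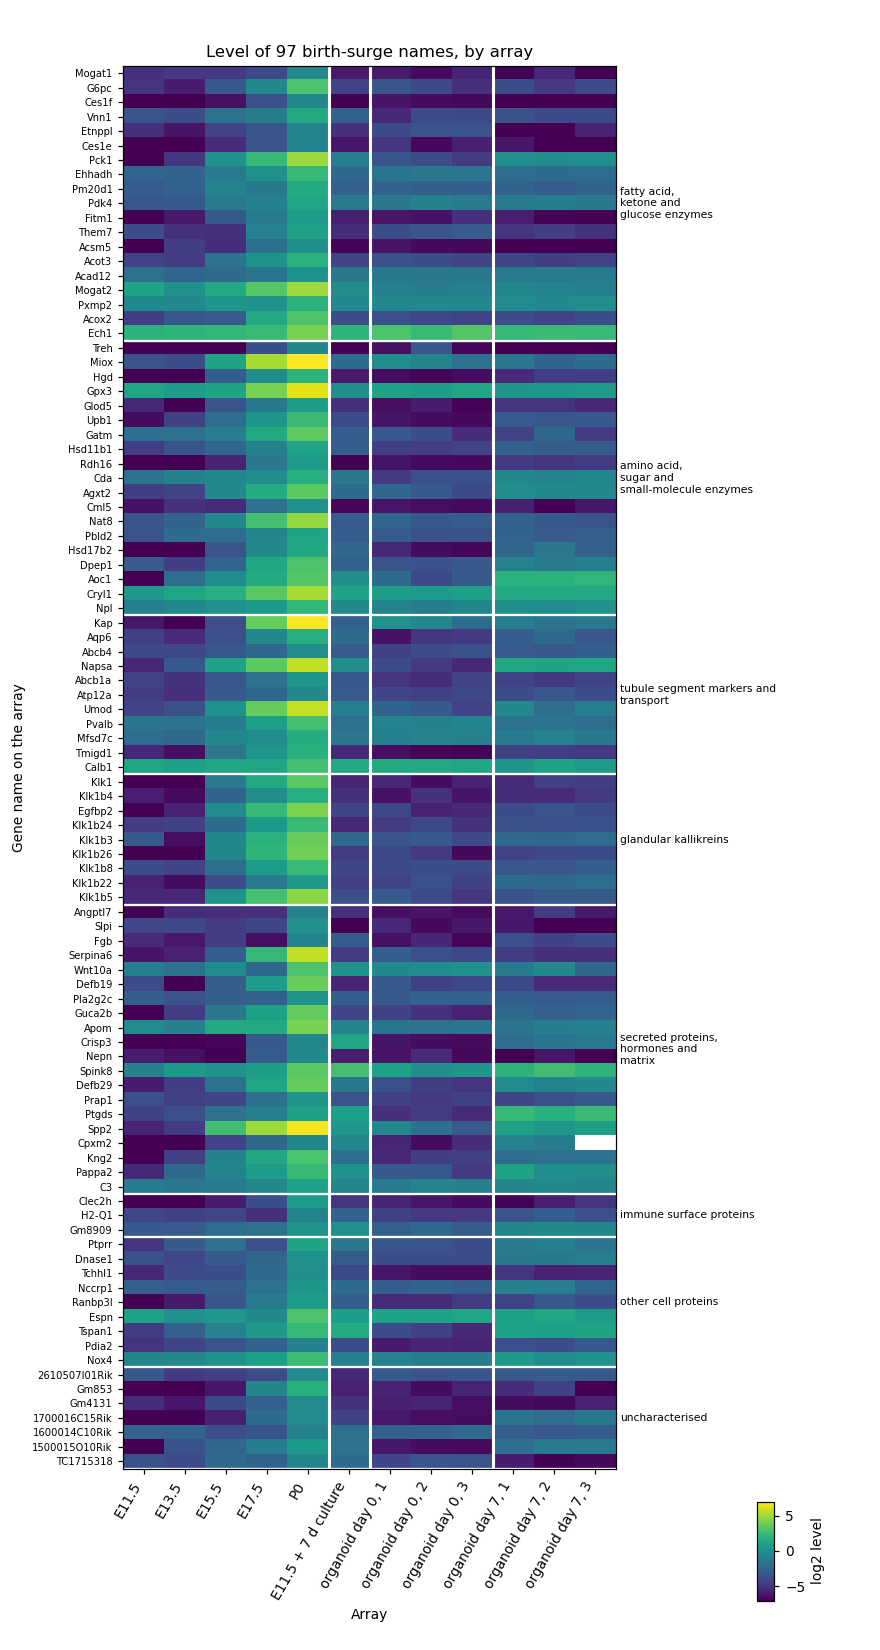
Log2 level (0 is the 75th percentile of an array) of 97 of the 100 names on each of the 12 arrays, ordered by role and then by score; white marks a missing value (Cpxm2, day 7 replicate 3). The P0 column is the brightest of the fresh stages by construction, with a median over all 100 names of 1.74, while cultured kidney has a median of -2.78 and the day 7 arrays have medians of -2.89 to -2.72.

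Other probes for the same name were present for 20 members. In 13 of them another probe was well above background at P0, and in 10 of the 13 every such probe was at least 2-fold above its highest level before birth. The other probe disagreed for Espn, an actin-bundling protein (-1.0 against 1.96 for the chosen probe), for Cryl1, an enzyme of sugar acid breakdown (-0.04 against 1.66), and for the uncharacterised 1600014C10Rik (0.15 against 1.71). On the genome, 29 of the 98 symbols had another member within 1 Mb, in 10 groups. The largest group held 9 genes on chromosome 7: the kallikreins and Napsa.

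The 250 bases before the start site are shown for 7 members that stand for the main patterns: G6pc and Kap are among the 12 names of highest score, Miox is the brightest at P0, Pck1 rose in organoids, Agxt2 carries the least common motif, and Klk1b4 and Klk1b5 are the closest pair of kallikrein promoters. G6pc and Kap were named by score and the others were chosen after their values were seen. Sequences come from RefSeq on build GRCm38.p6, 5′ to 3′ along the strand of the gene. Capitals mark letters matched on either strand. They are GTTAAT (a half-site of the tubule and liver factor HNF1), CAAAGTCCA (part of a site of the tubule and liver factor HNF4) and TATAAA (the TATA box). G6pc lies at chr11:101367466-101367715 on the plus strand, Kap at chr6:133853668-133853917 on the minus strand, Miox at chr15:89334223-89334472 on the plus strand and Pck1 at chr2:173152823-173153072 on the plus strand. Agxt2 lies at chr15:10358283-10358532, Klk1b4 at chr7:44207183-44207432 and Klk1b5 at chr7:44216224-44216473, all on the plus strand.
G6pc: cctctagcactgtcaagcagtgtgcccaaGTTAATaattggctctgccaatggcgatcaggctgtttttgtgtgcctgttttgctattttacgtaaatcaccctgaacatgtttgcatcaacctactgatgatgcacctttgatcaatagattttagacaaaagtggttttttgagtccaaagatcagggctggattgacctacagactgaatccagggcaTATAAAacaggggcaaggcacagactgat
Kap: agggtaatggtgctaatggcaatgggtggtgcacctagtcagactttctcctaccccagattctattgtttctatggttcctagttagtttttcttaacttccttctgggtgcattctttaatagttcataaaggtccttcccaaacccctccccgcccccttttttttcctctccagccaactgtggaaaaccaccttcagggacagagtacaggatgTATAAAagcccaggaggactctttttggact
Miox: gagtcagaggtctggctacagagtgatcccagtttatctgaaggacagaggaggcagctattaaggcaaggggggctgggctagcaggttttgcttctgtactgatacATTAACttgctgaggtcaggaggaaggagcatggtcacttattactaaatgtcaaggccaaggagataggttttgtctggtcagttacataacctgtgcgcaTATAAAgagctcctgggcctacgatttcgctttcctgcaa
Pck1: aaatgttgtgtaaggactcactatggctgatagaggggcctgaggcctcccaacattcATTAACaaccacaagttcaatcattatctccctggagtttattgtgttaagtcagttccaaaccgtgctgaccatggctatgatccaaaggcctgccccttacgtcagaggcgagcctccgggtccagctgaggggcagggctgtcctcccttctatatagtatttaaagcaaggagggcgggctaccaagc
Agxt2: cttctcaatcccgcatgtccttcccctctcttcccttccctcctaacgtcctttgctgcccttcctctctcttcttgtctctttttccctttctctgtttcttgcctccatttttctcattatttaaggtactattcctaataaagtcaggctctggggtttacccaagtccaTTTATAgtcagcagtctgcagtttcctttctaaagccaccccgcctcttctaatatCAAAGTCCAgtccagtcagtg
Klk1b4: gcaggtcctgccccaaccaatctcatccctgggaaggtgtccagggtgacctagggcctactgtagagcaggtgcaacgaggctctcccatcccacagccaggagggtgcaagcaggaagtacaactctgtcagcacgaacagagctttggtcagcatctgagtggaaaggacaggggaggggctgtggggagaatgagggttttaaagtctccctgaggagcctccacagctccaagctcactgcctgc
Klk1b5: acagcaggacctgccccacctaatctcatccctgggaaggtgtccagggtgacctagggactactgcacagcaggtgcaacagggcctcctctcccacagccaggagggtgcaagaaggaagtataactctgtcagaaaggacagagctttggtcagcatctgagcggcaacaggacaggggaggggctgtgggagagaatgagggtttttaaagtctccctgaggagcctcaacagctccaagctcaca

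The RefSeq table held 94 promoters for 79 of the 98 symbols. GTTAAT was present, on either strand, in 13.83% of the 94 member promoters and in 6.432% of all 32851 promoters of that length. The 13 genes with it were G6pc, Pck1, Miox, Umod, Nat8, Cml5 (now Nat8f5), Mogat1, Etnppl, Gm853 (now Ldc1), Guca2b, Fgb, Dnase1 and Ranbp3l. Counted from the start site, it began at -221 in G6pc, -192 in Pck1, -142 in Miox and -202 in Umod. CAAAGTCCA was found in 3.191% of member promoters, those of Agxt2 and Treh, against 0.3835% of all, and its first 6 letters alone, CAAAGT, in 11.7% against 12.55%. TATAAA was in 14.89% of member promoters against 12.37%, TTGCNNAA (C/EBP) in 14.89% against 9.564%, CACGTG (E-box) in 9.574% against 6.021% and GGGCGG in 22.34% against 32.74%. The inverted repeat of the glucocorticoid receptor was found in 0 member promoters and 0.3866% of all, and the direct repeat of PPAR in 0 and 0.03348%. These are matches of letters in a short window, several promoters belong to 1 gene, and none shows binding.

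The score used no culture array, and the cultures entered only the choice of 1 probe per name, by its mean over 12 arrays, which concerns the 20 members with other probes. With the mean of the probes in its place, 44 members rose and 9 fell in organoids. With the chosen probes, between day 0 and day 7 of organoid culture, 47 members rose and 9 fell, 21 of those tested were not called, and 23 were not well above background on every array of either group, or lacked a value, and were not tested (limma, adjusted p under 0.05, two-sided). Of all 18004 genes tested, 27.5% rose and 41.1% fell. The median change was 0.95 for the 77 members tested and -0.17 for all genes tested. The 3 day 7 arrays did not overlap the 3 day 0 arrays for 58 members, and for 74.9% of all genes. Many members entered the test only because they were above background at day 7, so the 38 members above background on all 6 arrays are given as well: 17 rose, 8 fell and 13 were not called, with a median of 0.20, against 24.4% rising and 45.6% falling among all such genes and a median of -0.22.

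The dim members depend on how background is handled. The lowest level well above background was -4.57 to -4.19 on the day 0 arrays, whose 75th percentile of signal was 126 to 138, and -5.11 to -4.99 on the day 7 arrays, where it was 201 to 206. With normexp background correction in place of the scanner's, 27 of the 47 still rose, 6 kept the direction without a call, 14 turned below 0, and 31 members were called lower. The change moved by over 1.5-fold in 44 of the 56 called members. The 6 that kept the direction without a call were Guca2b (0.16, adjusted p = 0.0697), Upb1 (0.039, adjusted p = 0.568), Klk1b3 (0.13, adjusted p = 0.112), Aqp6, Nccrp1 and Pxmp2. Those called higher at first and lower with normexp were Fgb, Prap1, Atp12a, Ranbp3l, Egfbp2, Klk1b24, Pbld2, Klk1b8, Pdia2 and Tmigd1, and H2-Q1, Abcb4 and Hsd11b1 were among those that turned below 0 without a call. Day 0 replicates 1 and 2 lay on the slide of the kidney arrays and day 0 replicate 3 on the slide of the day 7 arrays. With slide as a block 39 members rose and 7 fell, and within the second slide alone, with 1 day 0 array, 44 rose and 8 fell. The slide block ended the calls of 13 members: Serpina6, Aqp6, Abcb4, Nccrp1, Prap1, Atp12a, Ranbp3l, Egfbp2, Acot3, Npl, Pxmp2, C3 and Calb1. It added calls for Klk1b26 and Klk1b5, higher, and Ech1, lower. The rises of 9 members were over 1.5-fold larger with it: Spp2 (3.85 in place of 2.55), Umod (3.1 in place of 2.14), Agxt2 (3.58 in place of 2.82), Guca2b, Pck1, Defb29, Napsa, Tspan1 and Pappa2. Of the 56 called members, 15 were above background on only 1 or 2 arrays of a group, so their folds rest in part on values below background: Serpina6, Pck1, Defb29, Abcb4, Napsa, Atp12a, Hsd11b1, Cda, Tspan1, Them7, Klk1b24, Klk1b8, Klk1b22, Kng2 and Pappa2. The complement protein C3 (1.33-fold) lost its call without any 1 array other than day 0 replicate 2, Egfbp2 without any other than day 0 replicate 1, and Pbld2 without day 0 replicate 2 or 3 or day 7 replicate 1 or 3. The arrays of P0 and of day 7 lay on different slides, which touches every comparison of their levels below.

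**Figure D2:**
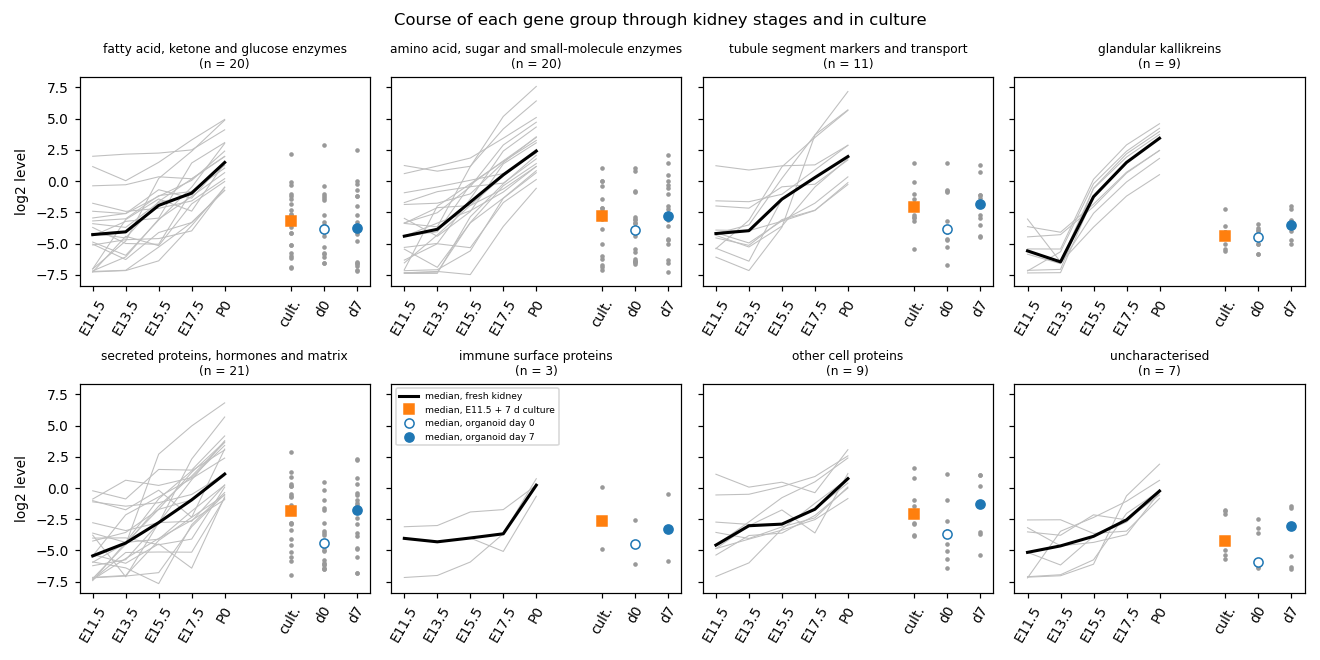
Log2 level of the members by role: grey lines are single genes through the 5 fresh stages, the black line is their median, and grey points with coloured medians give the cultured E11.5 kidney (1 array) and the day 0 and day 7 organoids (means of 3 arrays). The kallikrein median climbs from -6.46 at E13.5 to 3.43 at P0 and stays at -4.37 in cultured kidney and -3.52 at day 7, while the secreted proteins reach -1.77 at day 7.

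Among the 20 enzymes of fat, ketone and glucose metabolism, 3 rose in organoids, 4 fell, 8 were not called and 5 were not tested. G6pc, glucose-6-phosphatase, which frees glucose from liver and kidney cells, was -4.88, -5.94, -3.11 and -0.48 before birth and 3.01 at P0. In organoids it was -3.25, -3.93 and -5.04 at day 0 and -3.65, -4.67 and -3.82 at day 7, and in cultured kidney -4.15. The groups overlapped, and the difference was 0.03 ± 0.48 (SE; adjusted p = 0.961). Pck1, the enzyme that opens glucose synthesis, was 2.39 at E17.5 and 4.87 at P0. Its day 0 values were -3.25, -3.76 and -4.57 and its day 7 values 0.02, -0.13 and 0.05, a rise of 3.84 ± 0.31 (14.3-fold, adjusted p = 8.33e-05). Cultured kidney had -1.02, and all 3 day 7 values lay near the E15.5 level of 0.21.

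The peroxisomal membrane protein Pxmp2 rose by 0.21 ± 0.08 (adjusted p = 0.0484). The fallers were Etnppl, a phosphoethanolamine lyase (at least 2.8-fold, adjusted p = 0.000656), Them7 (-1.48 ± 0.21, adjusted p = 0.000926), the peroxisomal fat oxidation enzyme Ehhadh (-0.50 ± 0.08, adjusted p = 0.00174) and the peroxisomal thioesterase Acot3 (-0.46 ± 0.17, adjusted p = 0.0457). The calls of Pxmp2 and Acot3 were lost in 15 and 12 of the alternatives, among them median scaling, quantile normalization and the slide block. Pdk4, the kinase that spares pyruvate in fasting, was 1.26 at P0, between -1.47 and -0.92 at day 0 and between -1.33 and -1.14 at day 7, with overlap (adjusted p = 0.847). Ech1, a fatty acid isomerase of peroxisomes and mitochondria, was the brightest of the group in cultures, at 2.46 ± 0.061 (SD, n = 3) at day 7 against 4.10 at P0. Ces1f, Ces1e, Acsm5, Fitm1 and Mogat1 were below background on all day 7 arrays. P0 exceeded them by at least 19.6-fold to 52.3-fold.

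Other genes of these pathways were followed through lists. Of the 14 measured genes of fasting, ketone and fatty acid metabolism that are not members, 2 were past 2-fold higher at P0 than at E17.5 and 0 past 2-fold lower, where 3.64% and 2.29% of all genes were. These were Angptl4, an inhibitor of lipoprotein lipase, higher by 2.63, and Cpt1a, which passes fatty acids into mitochondria, higher by 1.32. In organoids 7 of the 15 tested genes of that list that are not members rose and 6 fell, among them Angptl4 (-2.58) and Cpt1a (-0.75). Of 22 genes known to be induced by glucocorticoids, 3 are members, selected on their P0 level. Of the 19 others 3 were past 2-fold higher at P0 than at E17.5 (Angptl4 and the metallothioneins Mt1 and Mt2) and 0 past 2-fold lower. The median difference over all 22 was 0.17. Klf9 and Cdkn1a differed by 0.79 and 0.75, Fkbp5 and Tsc22d3 by 0.03 and 0.08, and Per1 and Ddit4 by -0.52 and -0.65. A part of glucocorticoids in these levels was not tested. Of the 14 measured genes of the circadian clock 0 were past 2-fold either way.

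The 20 enzymes that act on amino acids, sugars and other small molecules split in organoids into 10 that rose, 1 that fell, 3 not called and 6 not tested. Miox, which opens the breakdown of inositol and is made mainly in the proximal tubule, was -3.39, -3.66, 1.16 and 5.18 before birth and 7.58 at P0. Its values were -0.14, -0.63 and -1.76 at day 0, -1.52, -2.50 and -2.05 at day 7 and -2.12 in cultured kidney. The organoid groups overlapped (-1.18 ± 0.44, adjusted p = 0.0507), and P0 was 777-fold above the day 7 mean. Aoc1, the diamine oxidase that breaks down histamine and polyamines, behaved in another way. It was 1.58 at E17.5 and 3.25 at P0, and went from -2.06, -3.85 and -3.09 at day 0 to 1.94, 2.0 and 2.22 at day 7, a rise of 5.05 ± 0.42 (33.1-fold, adjusted p = 9.08e-05). Every day 7 array was above E17.5, and P0 was 2.3-fold above their mean.

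Hsd17b2, which inactivates sex steroids, rose at least 4.66-fold (adjusted p = 0.000329), from below background to -2.39, -1.47 and -2.72. Upb1, of pyrimidine breakdown, rose at least 2.49-fold (adjusted p = 6.4e-06), the cytidine deaminase Cda 9.97-fold (adjusted p = 0.000137) and the aminotransferase Agxt2 7.06-fold (adjusted p = 0.000467). Dpep1, a brush border dipeptidase, rose 4.91-fold (adjusted p = 4.56e-05) and Hsd11b1, which makes active glucocorticoid, 2.97-fold (adjusted p = 4.37e-05; below 0 with normexp). Cryl1 (1.54-fold), Npl (1.69-fold) and Pbld2 (1.52-fold, overlapping arrays) rose less. Gpx3, the glutathione peroxidase of plasma, which is made in the proximal tubule, fell by 0.60 on the log2 scale (SE 0.14, adjusted p = 0.00861). Treh, Hgd, Rdh16, Glod5 and Cml5 were among those not tested, and Gatm, which starts creatine synthesis (adjusted p = 0.694), and Nat8 (adjusted p = 0.605) were not called.

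Of 11 tubule markers and transport proteins 6 rose and 2 fell. Napsa, an aspartic protease of proximal tubule and lung, was 3.49 at E17.5 and 5.66 at P0. It went from -3.79, -4.64 and -5.43 at day 0 to 1.41, 1.17 and 1.31 at day 7, a rise of 5.92 ± 0.38 (60.4-fold as measured, with 1 of the 3 day 0 arrays above background; adjusted p = 3.23e-05), and was -0.07 in cultured kidney. The day 7 arrays were thus at the E15.5 level of 1.14. Kap, an abundant androgen-regulated protein of the proximal tubule, was 0.11, -0.48 and -2.07 at day 0, -1.10, -1.53 and -1.42 at day 7, and -2.69 in cultured kidney, against 7.17 at P0. The groups overlapped (-0.54, adjusted p = 0.393), and P0 was 367-fold above day 7. With slide as a block the difference turned to 0.72 (adjusted p = 0.0715), and within the second slide alone Kap was called higher at day 7 (adjusted p = 0.0337).

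Umod, the main urinary protein of the loop of Henle, was 3.70 at E17.5 and 5.70 at P0, -2.47, -3.02 and -4.19 at day 0 and -0.34, -1.93 and -0.99 at day 7. It rose by 2.14 ± 0.54 (4.4-fold, adjusted p = 0.0118) and P0 was 110-fold above day 7. Aqp6, a water channel of intercalated cells, rose at least 3.18-fold (adjusted p = 0.00359), from below background to -2.81, -2.21 and -3.21. The calcium-binding proteins of the distal tubule fell: Pvalb by 1.05 (SE 0.12, adjusted p = 0.000362) and Calb1 by 0.70 (SE 0.18, adjusted p = 0.012), although Calb1 still lay above the 75th percentile of every day 7 array, at 0.37, 1.04 and 0.72. The calls of Calb1 and Aqp6 were lost with slide as a block. Small rises of the canalicular lipid transporter Abcb4 (1.81-fold) and the proton pump Atp12a (1.5-fold) turned below 0 under normexp. So did that of Tmigd1, whose day 0 values were below background. Its bound was only 0.97-fold, so its call rests on values below background.

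Of 44 listed proximal tubule genes 11 are members. Of these 5 rose in organoids (Napsa, Pck1, Agxt2, Upb1 and Dnase1) and 1 fell (Gpx3), while Kap, Miox, G6pc, Gatm and Nat8 were not called. Of the 29 other listed genes that were tested, 21 rose and 1 fell, where 27.5% and 41.1% of all genes tested did. The largest rises were in Aqp1 (6.60), Keg1 (6.18) and Dao (5.68), with values below background taken as measured. Of the 44 genes 35, 33 and 28 were above background on the day 0 arrays and 40 on each day 7 array. The difference between the shares of members and of other listed genes was not tested. Of 17 genes of the loop of Henle and distal tubule 5 are members, and 7 of the 10 others tested rose. Here 12, 12 and 11 of the 17 were above background at day 0 and 15, 15 and 16 at day 7. Some genes of both lists thus entered the test through day 7 alone, which favours a rise.

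**Figure D3:**
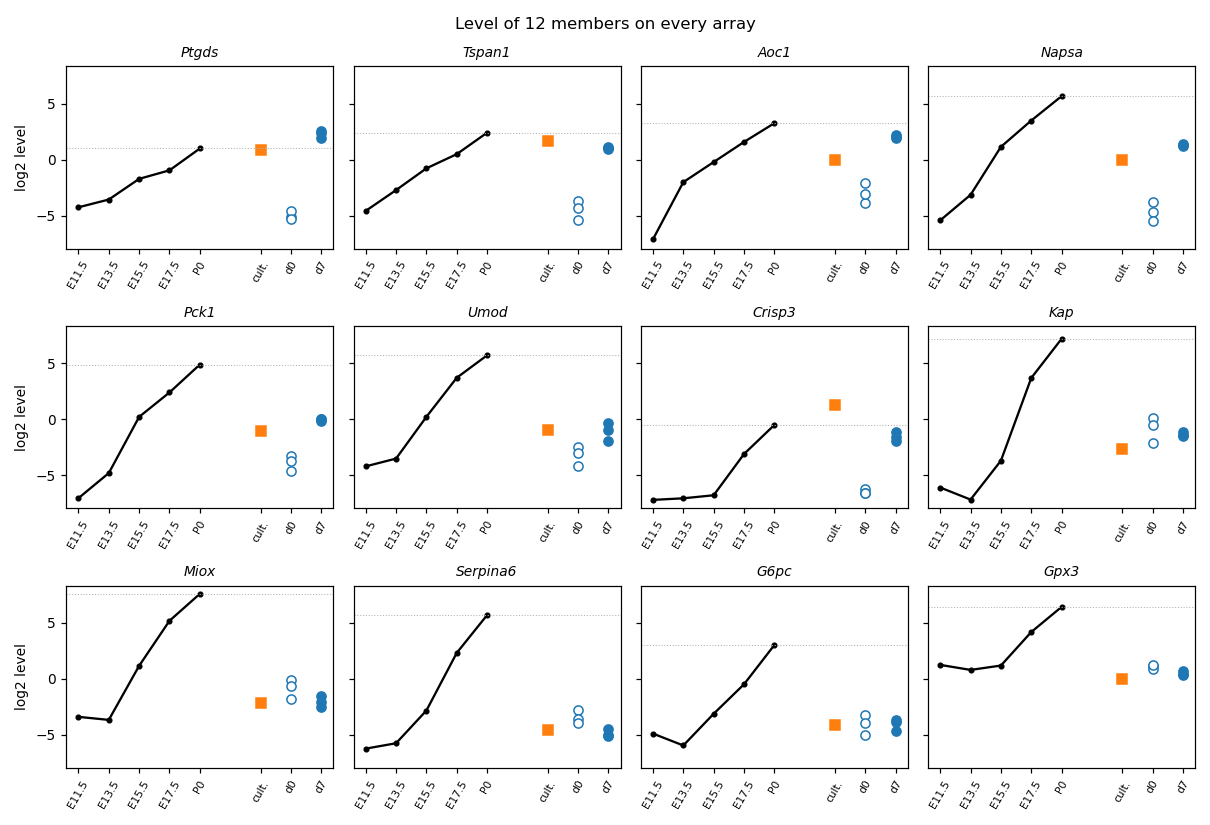
Log2 level of 12 members on every array: black, fresh kidney by stage; orange square, E11.5 kidney after 7 days of culture; open and filled blue circles, organoids at day 0 and day 7 (3 arrays each); dotted line, the P0 level. Ptgds passes its P0 level of 1.0 at day 7 and Tspan1 and Aoc1 come near theirs, while Kap, Miox, Serpina6 and G6pc stay far below.

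The 9 glandular kallikrein names, serine proteases of which Klk1 is the tissue kallikrein that frees kinins, had scores of 1.70 (Klk1b5) to 1.94 (Klk1), a range bounded below by the selection. The 7 other Klk1b names on the array scored from -0.51 to 2.09, the highest being Klk1b27, whose P0 level of -3.78 was under the limit for members. Their levels at P0 ran from 0.52 (Klk1b22) to 4.59 (Klk1b5). The probes are alike, so single members are uncertain. Between Egfbp2 and Klk1b26, now the same gene, 55 of 55 overlapping bases match. The matches were 54 of 59 between Egfbp2 and Klk1b5 and 49 of 54 between Klk1b26 and Klk1b5. They were 48 of 55 between Klk1 and Klk1b4 and 41 of 47 between Klk1b3 and Klk1b22. Over the promoter window the Klk1b genes were 60.07% to 87.55% identical (median 72.86%, 21 pairs), the highest for the Klk1b4 and Klk1b5 sequences printed above, and Klk1 was 39.71% to 54.79% identical to them. In organoids 5 names rose (Klk1b22 3.82-fold, Klk1b3 2.33-fold, Egfbp2 at least 1.63-fold, Klk1b24 1.93-fold and Klk1b8 1.62-fold, the last 3 called lower with normexp and Klk1b3 not called with it), 2 were not called and 2 were not tested. The 2 not called, Klk1b26 and Klk1b5, were called higher with slide as a block (2.65, adjusted p = 0.0014, and 1.62, adjusted p = 0.016) and lower with normexp. Egfbp2 and Klk1b26 stand for 1 gene, so their different calls do not mark genes that behaved differently. Over the 9 names P0 was a median of 113-fold above day 7, with values below background taken as measured. Klk1b22 came closest, with day 7 values of -2.05, -2.16 and -1.87 against 0.52.

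The 21 secreted proteins, hormones and matrix proteins included 12 that rose, 1 that fell, 4 not called and 4 not tested. Ptgds, the lipocalin-type prostaglandin D synthase, was -4.24, -3.56, -1.71 and -0.95 before birth and 1.0 at P0 (probe at chr2:25322232-25322291, build mm9). It was -5.13, -4.57 and -5.31 at day 0, below background, 2.35, 1.89 and 2.53 at day 7 and 0.88 in cultured kidney. The rise was the largest of the members, at least 102-fold (7.26 ± 0.24, adjusted p = 3.72e-06), and every day 7 array exceeded P0. Crisp3, a secreted cysteine-rich protein of the salivary gland and genital tract, was below background up to E15.5, -3.10 at E17.5 and -0.51 at P0 (probe at chr17:40358752-40358811, build mm9). It rose at least 7.24-fold to -1.97, -1.54 and -1.15 (adjusted p = 8.59e-06) and stood at 1.27 in cultured kidney, above P0. Pappa2, a protease that frees insulin-like growth factors, rose 15-fold (adjusted p = 0.000608) and the defensin Defb29 14.3-fold (adjusted p = 0.000112).

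Kng2, a kininogen, rose 7.82-fold (adjusted p = 0.00018), Spp2, a phosphoprotein first found in bone, 5.85-fold (adjusted p = 0.00925), and Guca2b, the salt-wasting hormone uroguanylin, at least 3.94-fold (adjusted p = 0.000801). Spink8, a protease inhibitor, rose 3.55-fold (adjusted p = 0.00271) to 2.04, 2.70 and 2.12, near its P0 level of 3.41. Serpina6, the corticosteroid-binding globulin, was 2.31 at E17.5 and 5.68 at P0. It was -2.81, -3.57 and -3.97 at day 0 and -4.48, -5.11 and -5.04 at day 7, without overlap, a fall of 1.42 on the log2 scale (SE 0.32, adjusted p = 0.00672), and the call was lost with slide as a block. Only 1 of the 3 day 7 arrays was above background. Wnt10a was -0.30, -0.21 and 0.08 at day 0 and -1.24, -0.42 and -2.39 at day 7 (adjusted p = 0.0542), and Defb19, a defensin, also was not called (adjusted p = 0.0822). Apom, a carrier of sphingosine phosphate, had 0.43 ± 0.20 (adjusted p = 0.0899). Slpi, Angptl7 and Nepn were too dim to test, and Cpxm2, at -0.80 and -1.06 on 2 day 7 arrays and missing on the third, was left out of this test.

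Among the 3 immune surface proteins, the MHC class I gene H2-Q1 was between -5.07 and -4.0 before birth and -0.67 at P0. It rose at least 2.25-fold in organoids (adjusted p = 0.00217; below 0 with normexp), and Gm8909, a gene model also on chromosome 17, rose 4.27-fold (adjusted p = 0.000141) to -0.60, -0.31 and -0.60, 1.66-fold below P0. All 8 tested genes of the antigen presentation list other than H2-Q1 rose too, where 27.5% of all genes tested rose. The largest changes were in H2-Ab1 (3.83), Cd74 (3.74) and H2-Aa (3.16). Of the 10 listed genes 5, 6 and 7 were above background on the day 0 arrays and 9 on each day 7 array. Some thus entered the test through day 7 alone, which favours a rise, with values below background taken as measured. Clec2h, the leading member, was below background on every culture array, and P0 exceeded day 7 at least 53.4-fold.

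Of 9 other cell proteins 7 rose and 0 fell. Tspan1, an epithelial tetraspanin, was 0.49 at E17.5 and 2.40 at P0. It went from -3.68, -4.30 and -5.36 at day 0 to 1.05, 0.98 and 1.17 at day 7 (45.7-fold as measured, with 1 of the 3 day 0 arrays above background; adjusted p = 5.03e-05) and was 1.62 in cultured kidney. All day 7 arrays and the cultured kidney were above E17.5. Dnase1, the secreted deoxyribonuclease, rose 5.35-fold (adjusted p = 1.05e-05), the phosphatase Ptprr 4.46-fold (adjusted p = 0.000137) and Nox4, the hydrogen peroxide-making oxidase of the tubule, 2.24-fold (adjusted p = 0.00302). Pdia2 (at least 1.91-fold) and Ranbp3l (at least 1.66-fold) turned with normexp. Espn stayed between 0.74 and 1.29 on all 6 arrays (adjusted p = 0.44). The 7 names grouped as uncharacterised are provisional names on the array, and some now have a gene symbol. Of these, 1700016C15Rik rose at least 6.92-fold (adjusted p = 8.17e-06) and 1500015O10Rik (now Ecrg4) at least 7.83-fold (adjusted p = 1.36e-05). The name 1600014C10Rik fell by 0.49 (SE 0.16, adjusted p = 0.0295), and the call was lost without day 0 replicate 3 or day 7 replicate 2 or 3.

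Set against the fresh stages, the day 7 mean was below the P0 level for every member but Ptgds. For each member the latest fresh stage whose level the day 7 mean reached was P0 for 1 (Ptgds), E17.5 for 17, E15.5 for 15, E13.5 for 28, E11.5 for 5 and none for 34, where members not above background on every day 7 array count as none. Cultured E11.5 kidney gave nearly the same spread: 2 at P0 (Crisp3 and Cpxm2), 14 at E17.5, 17 at E15.5, 29 at E13.5, 8 at E11.5 and none for 30. A stage counted as reached even where an earlier stage had a higher level. Wnt10a, Espn and 1600014C10Rik counted as E17.5 in day 7 organoids, though their day 7 means lay below their E11.5 levels. They are among the 14 members that gained less than 2-fold from E11.5 to E17.5. For members without a climb before birth, the stage reached does not mark progress along the stages. Of the 73 members above background on all day 7 arrays, 15 were above their highest level before birth in day 7 organoids. Of the 75 above background in cultured kidney 14 were, with 9 shared. Over all genes measured these shares were 25.6% and 25.5%. At or above P0 lay 61.0% and 61.1% of all genes. The members were chosen for a high P0, so nothing is read from that contrast. P0 was a median of 25.9-fold above day 7 organoids and 26.9-fold above cultured kidney, with values below background taken as measured.

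**Figure D4:**
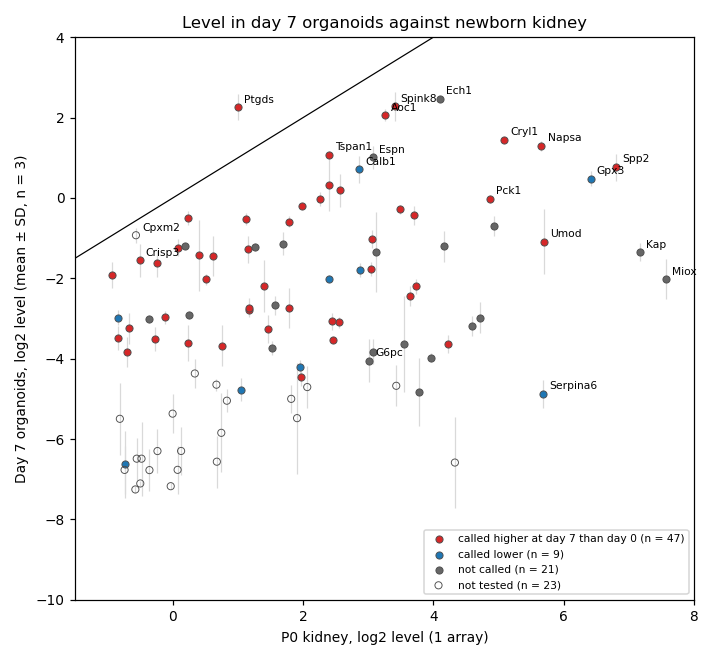
Mean log2 level in day 7 organoids (bars, SD, n = 3) against the level in P0 kidney (1 array) for each member, coloured by the test of day 7 against day 0; the line marks equal levels, and points under about -5 are mostly below background. Only Ptgds lies above the line, at 2.26 against 1.0, and Miox, Kap and Spp2 lie farthest to the right.

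**Figure D5:**
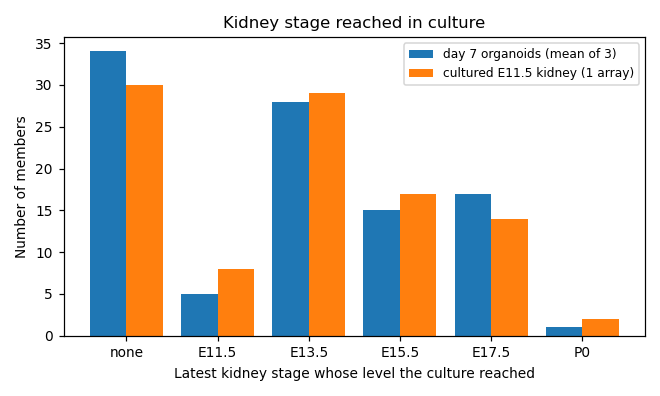
Number of the 100 members by the latest fresh kidney stage whose level was reached in day 7 organoids (blue) or in cultured E11.5 kidney (orange). The commonest classes in both are none (34 and 30) and E13.5 (28 and 29). At E13.5 only 62 of the 100 members were above background, so a stage can count as reached where its own level was not measurable. A stage also counts as reached where an earlier stage had a higher level.

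Many of these RNAs were also higher in E11.5 kidney after 7 days of culture. Against the fresh E11.5 kidney on the same slide, 39 members were past 2-fold higher and 5 past 2-fold lower, 36 lay within 2-fold and 20 were below background on both arrays. Of all genes, 12% were past 2-fold higher and 6.97% lower. This compares 1 array with 1 array, without a test, and E11.5 was among the stages that chose the members. With normexp the counts were 17 and 2. The largest differences were in Crisp3 (at least 95.8-fold), Spp2 (at least 48.4-fold), Pappa2 (at least 44.7-fold), Aoc1 (at least 38.9-fold), Napsa (at least 37.8-fold) and, above background on both arrays, Tspan1 (72.9-fold) and Ptgds (34.8-fold). The lower members were Defb19, 2610507I01Rik, Gpx3, Them7 and Mogat2. Of the 47 members that rose in organoids 31 were past 2-fold higher in cultured kidney and 0 past 2-fold lower, and of the 9 that fell 2 were past 2-fold lower. This overlap was not set against that of all genes that rose or fell in organoids, so nothing particular to the members is read from it.

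Of 78 members tested between day 7 organoids and cultured kidney, 7 were called higher in organoids, 4 lower and 67 not. The limma fit assumed that the lone kidney array varied like organoid replicates. Of all genes tested, 4.13% were called higher and 3.1% lower. With 1 kidney array, the 67 members not called are not shown to be alike. Higher in organoids were 1700016C15Rik (2.62), 2610507I01Rik (2.38, at least 3.89-fold), Klk1b22 (2.34), Klk1b24 (1.92, at least 2.74-fold), Dnase1 (1.65), Dpep1 (1.61) and Klk1b8 (1.0), with adjusted p = 0.000918 to 0.0384. Among the lower were TC1715318 (at least 7.71-fold), Crisp3 (-2.83, adjusted p = 0.00738) and 1600014C10Rik (-1.13, adjusted p = 0.0397). Without day 7 replicate 3, 2 were lower. The groups lay on different slides. With slide as a block, which rests on the day 0 arrays of both slides, 4 were higher and 0 lower, and of the 11 only 2610507I01Rik (adjusted p = 0.0198) and Klk1b24 (adjusted p = 0.0421) remained. For Cpxm2 this fit lacked 1 day 7 array.

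The day 0 arrays differed among themselves in the brightest members. Of the 16 members with a P0 level of at least 4, day 0 replicate 1 was the highest of the 3 in 13 and replicate 3 the lowest in 9, with medians of -1.99, -2.40 and -3.0. Over all tested genes replicate 3 was the lowest in 26.9%. Replicates 1 and 2 shared the slide of the kidney arrays and replicate 3 did not. With slide as a block the organoid change of Miox went from -1.18 to -0.26 (adjusted p = 0.595), that of Kap turned above 0 and that of Umod grew, as given above.

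Markers of other cell types that a kidney sample could hold were set beside the members. Of 12 hepatocyte markers 8 were above background at P0, the member Fgb among them, and Alb, Apoa1, Apob and Apoh were not. Of the 8 hepatocyte markers measured, 3 were past 2-fold higher at P0 than at E17.5 (Fgb, Serpina1a and Fgg) and 0 past 2-fold lower. The median difference was 0.50, and the summed level of the list was 4.9 at E17.5 and 4.4 at P0. Summed erythroid markers went from 10.2 at E17.5 to 8.7 at P0, adrenal markers from 3.1 to 2.9 and fat cell markers from 5.6 to 5.2. Of 14 adrenal markers 10 were above background at P0, but not Cyp11a1, Cyp11b1 and Cyp11b2. The adrenal marker Hsd3b1 was past 2-fold higher at P0 than at E17.5, and 2 others were past 2-fold lower. Of 13 fat cell markers 9 were above background at E17.5 and 6 at P0, with Ucp1 and Adipoq not above background. Of 9 genital tract markers 6 were above background at P0, with sums of 3.0 at E17.5 and 4.9 at P0, mostly from Defb19 itself and Defb1. Epidermal markers summed to 2.0 and 2.1 there, but to 3.8, 5.5 and 2.6 on the day 7 arrays against 2.7 to 2.9 at day 0. The member Nccrp1 was -0.84, -1.0 and -2.45 on the same day 7 arrays (2.38-fold higher than day 0, adjusted p = 0.0336; the call was lost without any 1 of the day 0 arrays and without day 7 replicate 1 or 2). Of immune markers, 3 of the 8 measured antigen presentation genes other than H2-Q1 were past 2-fold higher at P0 than at E17.5 (H2-Aa, H2-Ab1 and H2-Eb1). So were 4 of 19 measured interferon-induced genes, with 0 past 2-fold lower in both lists. Of 17 measured neutrophil genes 4 were past 2-fold higher and 2 lower. Of 11 macrophage and 5 lymphocyte genes 0 were past 2-fold either way. Over all genes the shares were 3.64% higher and 2.29% lower. The part of these markers in the results was not tested. The 12 embryonic kidney lineage markers, Pax2 and Six2 among them, were above background on all 12 arrays.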

How the data were processed

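RNA was hybridised to 12 single-colour Agilent arrays. The intensity of each spot was background-subtracted by the authors with Agilent Feature Extraction, version 11.5.1.1 per the file headers and 10.7.3.1 per the submitters' processing notes. A further deposited table of log2 values equals the log2 signal minus a constant for each array, close to its 75th percentile. Probe coordinates are on mm9 per the file headers. The 75th percentile of signal was 126 to 287, 50.6% to 63.2% of 55681 probes were well above background, 108 to 206 outlier spots per array were left out, and no spot was saturated.

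Levels are log2 processed signal minus each array's 75th percentile, with the probe of highest mean over 12 arrays per name. Of the 100 names, 95 were matched to current symbols by accession, 3 by symbol and 1 by synonym. The members and lists were chosen with earlier results of these data known. A gene was tested where all arrays of either group were well above background. Tests used limma 3.58.1 in R 4.3.3 (moderated, two-sided, Benjamini-Hochberg over all named genes, threshold 0.05), and data.table (version 1.17.8), Python 3.11.15, pandas 2.3.3, numpy 2.4.6 and matplotlib 3.10.9 were used. The organoid fit held 6 arrays and that with cultured kidney 7. Where no array of a group was above background, a fold is given as at least a value, against the higher of the probe's own level and the dimmest level well above background on each array. The 12 names of highest score, up to 10 with the largest change each way in organoids, those at or above P0 and members of the lists were to be named, and the others are named to account for the set, while 3 members enter the counts but are not reported here by name. Promoter windows of 250 bases were searched on both strands. Equal replicate numbers did not pair the organoid arrays (correlations of deviations -0.013, -0.146 and -0.013). The code was tested on simulated data. Alternatives were other scaling, background correction, filters, moderation, probes, the deposited table, a block for replicate number, slides, and leaving out arrays.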

Additional observations from a re-analysis of the deposited data

How the results depend on the processing

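Of 941 values of the called members reported by name under the alternatives, 847 kept direction and call, 81 kept the direction without the call and 13 reversed, all 13 with normexp (offset 50): Fgb -0.16, H2-Q1 -0.16, Abcb4 -0.11, Prap1 -0.25, Atp12a -0.24, Hsd11b1 -0.011, Ranbp3l -0.22, Egfbp2 -0.22, Klk1b24 -0.24, Pbld2 -0.18, Klk1b8 -0.18, Pdia2 -0.17 and Tmigd1 -0.22. For day 7 against day 0, normexp gave 27 members higher and 31 lower (47 and 9 in the main analysis). Without a background filter 11897 of all genes were lower (7404 in the main analysis), with the filter on every array 17 members were higher, and at 2-fold 4 members were lower, with 2836 of all genes higher and 1653 lower. The pairing by replicate number could not be shown, and with it as a block 45 members were higher and 10 lower.

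For day 7 organoids against cultured kidney (7 members higher and 4 lower, 768 and 577 of all genes), median scaling gave 11 members higher, with 1333 and 381 of all genes. No filter gave 2 members lower and 400 of all genes higher, normexp 16 and 7 members with 1831 and 1358 of all genes, quantile normalization 2 members lower, and trend with robust moderation 1322 and 912 of all genes. Slide as a block, added after the data were seen, gave 4 and 0 members with 127 and 82 of all genes, the filter on every array 3 and 1 members, and 2-fold 367 and 352 of all genes. Leaving out each array in turn gave 5 to 9 members higher and 2 to 4 lower (2 without day 7 replicate 3), with 266 to 1004 and 267 to 789 of all genes, the low counts each without a day 7 array. For day 7 against day 0 it gave 41 to 46 members higher and 7 to 10 lower. Cultured against fresh E11.5 kidney gave 17 and 2 members with normexp (39 and 5 in the main analysis). Why counts moved was not tested, apart from filters and thresholds, which change the genes counted. Many members are dim, with signal near background, which limits these results.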
